A study of Homo sapiens with 27 samples.

Results

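The SMAD3 enhancer deletion was compared with a non-targeting control in teloHAEC, human endothelial cells of the aortic lining that were immortalised and grow as a line. All 8 libraries of the 2 groups were taken, 4 for the deletion (labelled S10, S11, S12 and S13) and 4 for the negative control (S27, S29, S31 and S33), out of 27 in the series. In the deletion group, Cas9 ribonucleoprotein carried guides on both sides of a candidate SMAD3 enhancer. The negative control carried a guide without a target, so both groups received Cas9 protein, a guide RNA duplex and an electroporation pulse. Both were collected 2 days later from 150000 cells per replicate. A further 4 libraries of the same set (S26, S28, S30 and S32), whose guide targets HPRT, a purine salvage gene, entered the fit for its estimate of spread and are set beside the results as a second group with a cut genome. The cells are a mixed pool of edited and unedited cells and not a clone, the labels give neither the deleted interval nor the share of cells that lost it, and the labels do not say whether replicates came from separate cultures, so the p-values below measure only the spread between these samples.

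SMAD3 is one of the receptor-regulated SMAD proteins. When a TGF-beta or activin ligand binds its receptor pair, the type I receptor kinase phosphorylates SMAD2 and SMAD3, which join SMAD4, enter the nucleus and bind regulatory DNA. In endothelial cells this branch works beside a second one, in which ALK1 (the ACVRL1 product) and endoglin pass signals to SMAD1 and SMAD5. Targets of the SMAD3 branch include matrix genes and the feedback inhibitor genes SMAD7 and SKIL, and common variants at the SMAD3 locus are associated with coronary artery disease.

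Each library held 5643716 to 7486328 counts in the deletion group and 5192724 to 6940870 in the control group, from reads at the 3′ ends of messenger RNAs. Levels are given as CPM, a gene's counts scaled to a common library total with edgeR's TMM factors, and differences as log2 fold changes of the deletion over the control with their standard errors (SE). One deletion library stood apart: the median correlation of S13 with the other libraries was 0.924, against 0.978 to 0.98 for S10, S11 and S12 and 0.979 to 0.981 for the controls. Percentages in this paragraph are sums of TMM-scaled CPM as a part of the common total, and so not exact shares of the counts. On this scale all genes tested summed to 95.65% in S11 and 101.7% in S13. Cytosolic ribosomal protein genes stood at 16.6% in S13, against 11.1% to 13.5% in the other 3 deletion libraries and 12.6% to 13.8% in the controls. Fits with all libraries (11467 genes tested) and without S13 (11614 genes tested) were therefore both run. All 12 endothelial markers were in the table, with summed levels of 1208 to 1769 CPM in the deletion and 1643 to 1716 CPM in the control. For other cell types, short lists of defining markers gave values for PDGFRA, a fibroblast marker, at 0.130 to 0.400 CPM in deletion libraries and 0.184 to 0.386 CPM in control libraries, and for CD14, a blood cell marker, at 0.519 to 2.88 CPM and 0.437 to 1.06 CPM. Longer lists had values for 16 of 31 mesenchymal and smooth muscle genes, 7 of 19 epithelial genes and 5 of 21 blood cell genes. On the scale above, the mesenchymal genes summed to 0.776% to 1.01% in the deletion and 0.819% to 0.954% in the control. The epithelial genes summed to 0.0936% to 0.140% and 0.0919% to 0.110%. For the blood cell genes the sums were 0.00109% to 0.00174% in the deletion and 0.00149% to 0.00210% in the control. Mesenchymal genes were thus present in these cells, among them ACTA2, the smooth muscle actin gene, at 27.1 to 44.5 CPM in the deletion and 24.5 to 32.7 CPM in the control. In these bulk samples fewer cells of a type and less RNA per cell cannot be told apart.

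SMAD3 messenger RNA was lower in the deletion libraries. It had 102, 105, 99.5 and 72.4 CPM in S10, S11, S12 and S13, against 127, 136, 116 and 134 CPM in S27, S29, S31 and S33, so that the groups did not overlap and S13 was the lowest library. Over all genes tested, every deletion library lay below every control library for 2.62% of genes, and S10, S11 and S12 did for 5.22%. The log2 fold change was -0.44 ± 0.14 (SE, n = 4 and 4), or -0.31 ± 0.12 without S13, which keeps S10, S11 and S12 below every control. A two-sided exact permutation test of the levels gave p = 0.0286, the smallest that 70 arrangements allow, and p = 0.0571 without S13, where 35 arrangements allow no less than 0.0286. Over the whole table, the quasi-likelihood test of edgeR, adjusted by Benjamini and Hochberg's method, gave an adjusted p of 0.702 with all libraries and 0.67 without S13, so SMAD3 did not pass genome-wide. The HPRT-targeting libraries S26, S28, S30 and S32 had 150.0, 125, 100.4 and 122 CPM of SMAD3, which spans the control range and reaches down to the level of the deletion libraries in S30.

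The promoter of SMAD3 is shown because it is the regulatory DNA of the target gene itself, whatever the position of the deleted enhancer. It is taken from RefSeq, at the most upstream of the 5 start sites listed there, and runs from 250 bases before to 50 after the start on the plus strand of GRCh38.p14, chr15:67065352-67065651. Capitals mark GC boxes (GGGCGG, or CCGCCC on the other strand), the letters of the SP family's motif, found 5 times here and at least once in 44.5% of all 27305 promoters of the same length.
SMAD3 promoter: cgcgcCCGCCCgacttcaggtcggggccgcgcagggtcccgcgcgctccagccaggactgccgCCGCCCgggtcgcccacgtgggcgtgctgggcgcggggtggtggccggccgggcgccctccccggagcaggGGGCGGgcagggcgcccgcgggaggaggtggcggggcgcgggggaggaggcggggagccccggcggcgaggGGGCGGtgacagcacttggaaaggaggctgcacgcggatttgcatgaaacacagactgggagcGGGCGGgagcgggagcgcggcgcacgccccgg

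**Figure D1:**
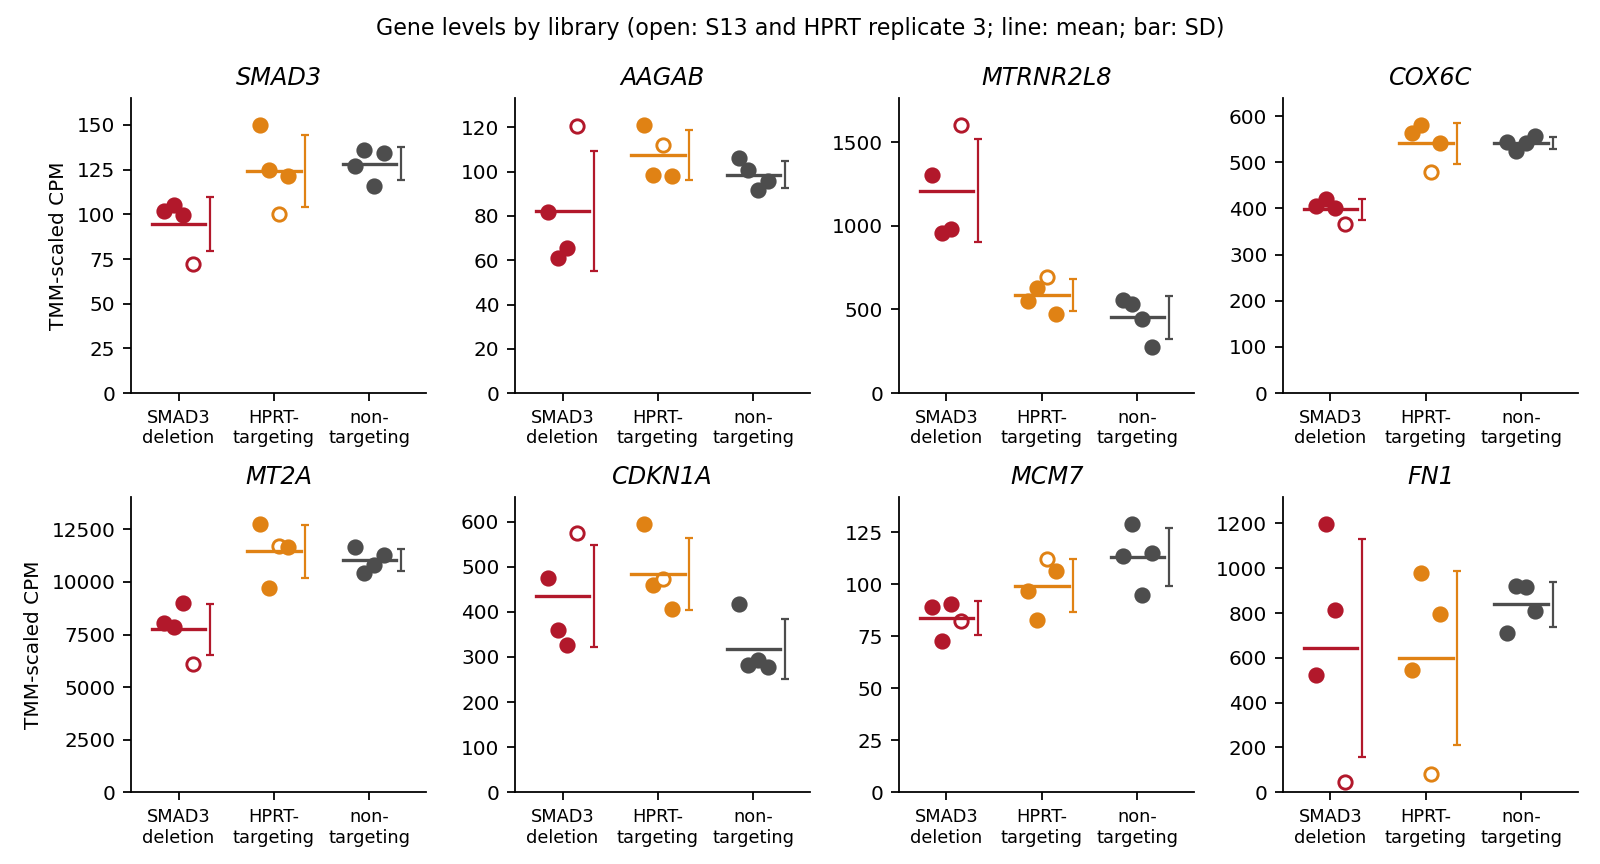
Levels of 8 genes (TMM-scaled CPM, linear axes from 0) in the libraries of the SMAD3 deletion (left), the HPRT-targeting guide (middle) and the non-targeting guide (right). Points are libraries, lines group means and bars SDs (n = 4 each); open points are S13 and HPRT replicate 3. SMAD3 and COX6C lie lower, and MTRNR2L8 higher, in all 4 deletion libraries than in all 4 non-targeting ones, while FN1 is at 43.8 CPM in S13 and at 524 CPM or more in the other 3.

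Of 16 genes of the table within 1 Mb of SMAD3, 12 were expressed well enough to be tested, and 9 were lower in the deletion with all libraries and 10 without S13, against 49.7% and 47.6% of all genes. Their median log2 fold change was -0.13 with all libraries and -0.17 without S13. None of the 12 had an edgeR adjusted p under 0.05 in either fit. The nearest is AAGAB, which encodes a chaperone that helps assemble the AP1 and AP2 clathrin adaptors. It lies 5838 bp beyond the end of SMAD3 on the opposite strand, so that both genes end towards each other. AAGAB had 81.8, 61.01, 65.5 and 120.5 CPM in S10, S11, S12 and S13, against 106, 101, 91.9 and 95.6 CPM in S27, S29, S31 and S33. S10, S11 and S12 lay below every control and S13 above every control, so the log2 fold change was -0.27 ± 0.18 with all libraries and -0.49 ± 0.12 without S13 (edgeR adjusted p = 0.783 and 0.601). DESeq2 called AAGAB without S13, with an adjusted p of 0.0496, and not with all libraries.

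The other neighbours described here had no unadjusted p under 0.05. SMAD6, which encodes an inhibitory SMAD of the BMP branch and lies upstream of SMAD3, had 6.003 to 7.75 CPM in deletion and 5.01 to 8.64 CPM in control libraries, with a log2 fold change of -0.05 ± 0.28. RPL4, a ribosomal protein gene, had 1076 to 1356 CPM in deletion libraries against 1254 to 1472 CPM in control libraries, a log2 fold change of -0.20 ± 0.09. MAP2K1, a kinase gene of the ERK pathway, had -0.19 ± 0.21 and -0.31 ± 0.20 without S13. PIAS1, a SUMO ligase gene, had 0.11 ± 0.14. Counting by strand is not stated for these data, and AAGAB overlaps IQCH on the opposite strand, which had no more than 1.08 CPM in any of the 8 libraries.

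**Figure D2:**
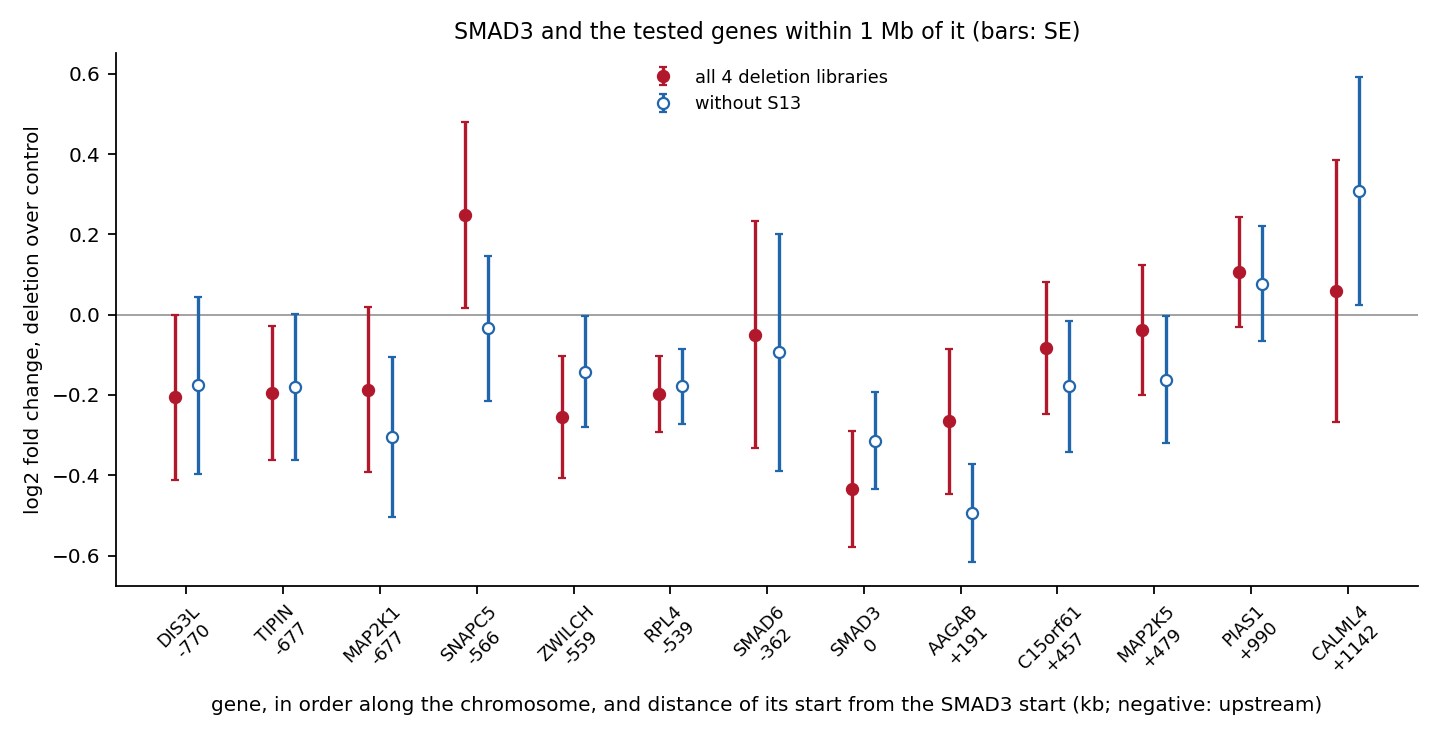
Log2 fold change of the deletion over the control (vertical axis, bars SE) for SMAD3 and the 12 tested genes within 1 Mb, in chromosome order, with the distance of each start from the SMAD3 start in kb. Filled points use all 4 deletion libraries and open points leave out S13; SMAD3 is lowest with all libraries at -0.44 and AAGAB is lowest without S13 at -0.49.

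The ligands and receptors of the TGF-beta family stayed near 0. Of 23 tested, 12 were higher and 11 lower with all libraries, and 17 were higher and 6 lower without S13, with medians of 0.01 and 0.07. None reached an unadjusted p under 0.05 in either fit, against 6.78% and 6.98% of all genes. TGFBR2, the type II receptor gene, had 149, 151, 138 and 130.4 CPM in deletion libraries against 154, 136, 129 and 144 CPM in control libraries (0.02 ± 0.11). TGFBR1, the type I receptor gene of the SMAD3 branch, had 0.15 ± 0.18. ENG, which encodes endoglin, had 152, 152 and 132 CPM in S10, S11 and S12 and 45.9 CPM in S13, against 145 to 179 CPM in the controls, so its value of -0.44 ± 0.33 became -0.16 ± 0.22 without S13.

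Among SMAD proteins other than SMAD3 and their regulators, 17 of 22 tested genes were higher in the deletion, with a median of 0.11, and 15 of 22 without S13, with a median of 0.06. An unadjusted edgeR p under 0.05 with the higher level in the deletion was reached by 3 of them in each fit, where 4.05% and 4.15% of all genes reached it, and none had one with the lower level. The 3 were SMAD5, SKIL and LEMD3 with all libraries, and SKIL, USP15 and ZEB2 without S13. SMAD3, which is not in this list, was lower, with an unadjusted edgeR p of 0.0093 with all libraries and 0.020 without S13. SKIL, which encodes a repressor that holds SMAD complexes inactive and is itself induced by TGF-beta, had 128, 123, 125 and 130.2 CPM in S10, S11, S12 and S13, against 111, 102, 108 and 86.8 CPM in the controls. All 4 deletion libraries lay above all 4 controls, and the log2 fold change was 0.31 ± 0.12 in both fits. LEMD3, which encodes an inner nuclear membrane protein that binds SMADs and dampens their signal, had 21.4 to 26.8 CPM in the deletion against 19.3 to 20.8 CPM in the control (0.27 ± 0.12, no overlap). SMAD5 of the BMP branch had 0.41 ± 0.15 and 0.27 ± 0.13 without S13, its highest library being S13 at 159 CPM. USP15, a deubiquitinase gene that sustains receptor signalling, and ZEB2, a repressor that binds SMADs, stood at 0.26 ± 0.13 and 0.17 ± 0.16 with all libraries, and at 0.31 ± 0.13 and 0.30 ± 0.14 without S13. SMAD2, the closest relative of SMAD3, had 0.11 ± 0.12. SMAD4, their common partner, had 0.13 ± 0.20 with all libraries and -0.08 ± 0.16 without S13. SMAD7 was too weakly expressed to say, at 0.667 to 3.96 CPM in the deletion and 1.02 to 4.23 CPM in the control.

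The targets of TGF-beta and SMAD3 did not share a direction. Of 36 tested, 12 were higher and 24 lower with all libraries (median -0.09), and 17 higher and 19 lower without S13 (median -0.02). Of all genes, 50.3% were higher with all libraries and 52.4% without S13. CCN2, which encodes connective tissue growth factor, had 724 to 977 CPM in the deletion and 723 to 1044 CPM in the control (0.03 ± 0.13), and CCN1 had -0.06 ± 0.15. With all libraries, 1 target was higher (SKIL) and 1 lower at an unadjusted edgeR p under 0.05, against 4.05% and 2.74% of all genes. The lower one was NOX4, the gene of an NADPH oxidase that makes hydrogen peroxide. Without S13, 0 targets were lower at that p, against 2.83% of all genes. NOX4 had only 2.05 to 3.60 CPM in the deletion and 3.49 to 5.32 CPM in the control (-0.70 ± 0.28, and -0.62 ± 0.30 without S13). ACTA2 had 0.33 ± 0.18. SMAD3 messenger RNA itself stood at 0.74 times the control level in the same libraries.

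Over the whole table, 0 genes (0%) had an edgeR adjusted p under 0.05, with all libraries and without S13. With all libraries 778 genes had an unadjusted p under 0.05, 464 of them higher and 314 lower in the deletion, and without S13 these numbers were 811, 482 and 329, where evenly spread p-values would give 573 and 581. The 455 genes that reached it in both fits are 58.5% of the first list and 56.5% of the second among genes tested in both, and all 455 had the same sign; the 2 fits share 7 of the 8 libraries. DESeq2 called 14 genes with all libraries and 16 without S13. Limma voom with sample quality weights called 2 in each case, MTRNR2L8 and ASDURF. The genes described next were named by a rule on the smallest unadjusted p among those at 10 CPM or more, except where said otherwise, so their p-values are those of a choice made over all genes.

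**Figure D3:**
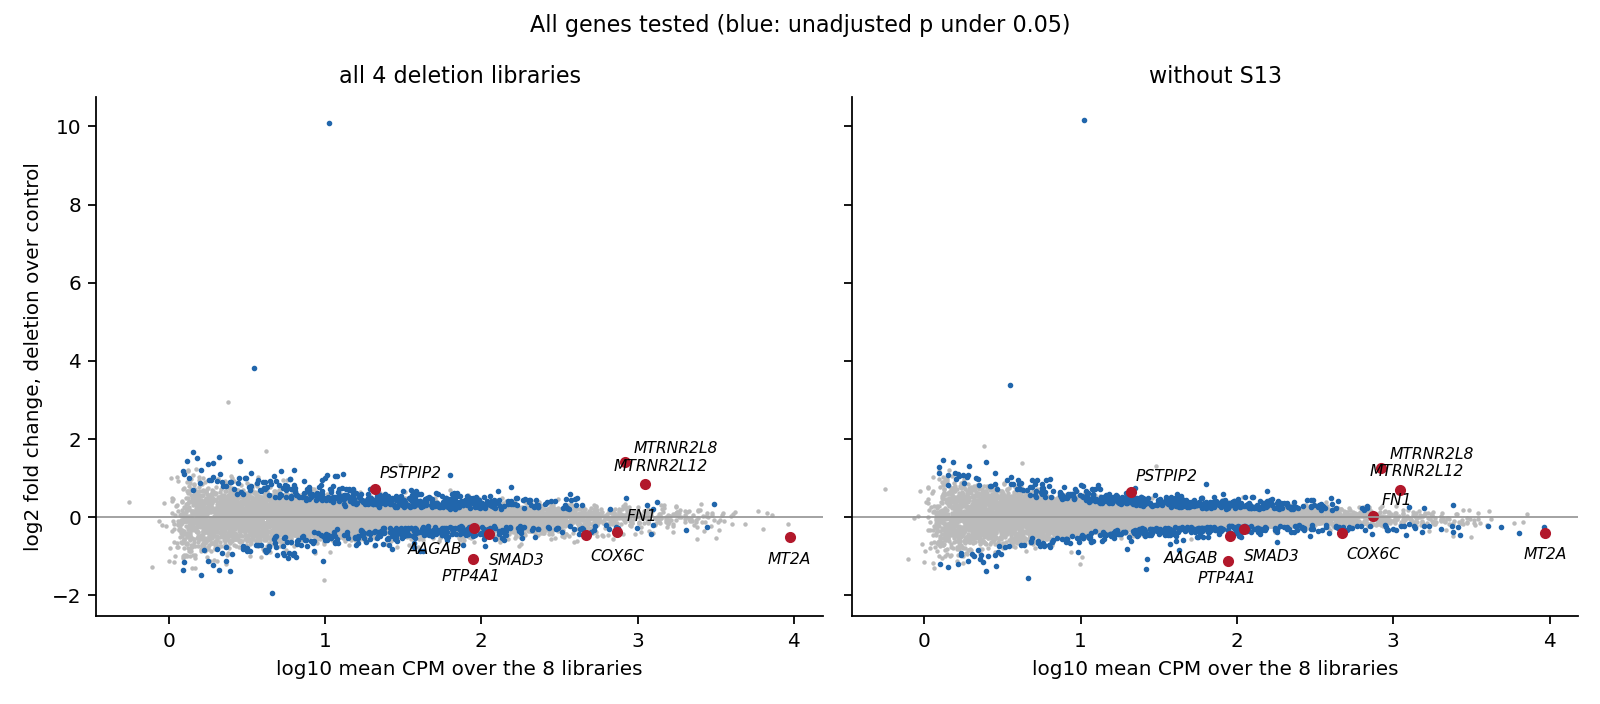
Log2 fold change of the deletion over the control against the log10 mean CPM of the 8 libraries for all genes tested, with all libraries (left) and without S13 (right). Blue points have an unadjusted edgeR p under 0.05 (778 and 811 genes) and red points are named genes; FN1 moves from -0.38 on the left to 0.02 on the right, while MTRNR2L8 stays above 1.2.

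The smallest p of both fits belonged to MTRNR2L8, a nuclear copy of the mitochondrial 16S ribosomal RNA gene MT-RNR2 that holds a reading frame for a humanin-like peptide. MTRNR2L8 had 1306, 956, 979 and 1603 CPM in S10, S11, S12 and S13, against 558, 532, 444 and 276 CPM in the controls. Every deletion library was above every control, as for 2.86% of all genes, and the log2 fold change was 1.42 ± 0.22 (edgeR adjusted p = 0.189), or 1.27 ± 0.20 without S13 (adjusted p = 0.0974). Its relative MTRNR2L12 had 1549, 1036, 1280 and 1842 CPM against 1030, 787, 808 and 559 CPM, which also leaves no overlap (0.84 ± 0.19). The HPRT-targeting libraries had 548, 631, 695 and 472 CPM of MTRNR2L8 and 991 to 1234 CPM of MTRNR2L12.

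The sequences are shown because they bear on how far these counts can be trusted. Each reading frame has 75 bases and is given 5′ to 3′ from the GENCODE transcripts, on GRCh38, with capitals at bases that differ from MT-RNR2. The first is from MT-RNR2 itself, chrM:2633-2707 (plus strand), the second from chr11:10508152-10508226 (minus strand) and the third from chr3:96617199-96617273 (minus strand).
MT-RNR2: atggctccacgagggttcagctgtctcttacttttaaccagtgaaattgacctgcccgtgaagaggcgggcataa
MTRNR2L8: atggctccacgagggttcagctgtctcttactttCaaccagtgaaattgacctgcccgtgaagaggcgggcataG
MTRNR2L12: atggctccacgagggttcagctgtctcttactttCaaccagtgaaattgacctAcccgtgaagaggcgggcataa
Both copies differ from MT-RNR2 at 2 of the 75 bases, and over whole transcripts they match it at 93.1% and 95.1% of aligned bases. Reads of 86 cycles from the mitochondrial RNA and from its copies can therefore be hard to separate. MT-RNR2 is not analysed here, so how its reads were counted was not tested.

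Among the other genes higher in the deletion, PSTPIP2, which encodes an actin-binding protein at membranes, had 21.2, 25.4, 27.1 and 30.6 CPM in the deletion against 14.7, 16.8, 15.8 and 16.2 CPM in the control (0.72 ± 0.16). ARFGEF2, the gene of an exchange factor for ARF GTPases at the trans-Golgi network, had 46.4 to 53.4 CPM against 26.5 to 36.9 CPM (0.59 ± 0.14). AP1S1, a small subunit gene of the AP1 adaptor, had 15.6, 14.1, 13.9 and 27.6 CPM in the deletion against 6.94 to 9.12 CPM in the control, and its value of 1.105 ± 0.27 was 0.83 ± 0.23 without S13. ADAM15, a cell surface protease gene, had 184 to 232 CPM against 147 to 167 CPM (0.44 ± 0.11). ARHGAP29, which encodes a brake on RhoA in endothelial cells, had 438 to 497 CPM against 259.6 to 366 CPM (0.46 ± 0.11). DDX20, an RNA helicase gene of the SMN complex, had 30.6 to 40.1 CPM against 20.4 to 26.9 CPM (0.53 ± 0.13). None of these 6 genes had an overlap between groups, as was so for 2.86% of all genes on this side, and small p-values were what chose them. Leaving out S13 added PSPC1, a paraspeckle protein gene (0.54 ± 0.11), YBX3, a cold shock domain gene (0.40 ± 0.09), and ARHGAP24, a GTPase-activating protein gene (0.51 ± 0.12), in each of which S13 lay inside or below the control range and S10, S11 and S12 above it, as for 5.23% of all genes.

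Among the genes lower in the deletion, COX6C, a nuclear subunit gene of cytochrome c oxidase, had the smallest p. It had 406, 421, 400.3 and 367 CPM in S10, S11, S12 and S13, against 544, 524, 543 and 557 CPM in the controls. Both groups were tight and far apart, with a log2 fold change of -0.44 ± 0.09, or -0.39 ± 0.09 without S13. MT2A, the main metallothionein gene, whose product binds zinc and copper, was abundant, with 8061, 7838, 8989 and 6092 CPM in the deletion against 11680, 10450, 10820 and 11270 CPM in the control (-0.51 ± 0.12). MT1X and MT1E, named after their values were seen, had -0.66 ± 0.22 and -0.36 ± 0.15. MT1E had 515 to 740.4 CPM in the deletion against 769.5 to 879 CPM in the control, without overlap, and the HPRT-targeting libraries had 729.5 to 1123 CPM of MT1E and 9714 to 12750 CPM of MT2A. Metallothioneins are close relatives in sequence, so reads may be shared among them.

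Further genes on this side were also named by the rule. HSPE1, the mitochondrial co-chaperonin gene, had 398 to 491 CPM in the deletion and 546 to 601 CPM in the control (-0.39 ± 0.10). EEF2, the elongation factor that moves the ribosome along messenger RNA, had 1681 to 1902 CPM against 2130 to 2378 CPM (-0.33 ± 0.09). KRT10, a keratin gene, had 71.0 to 83.8 CPM against 99.8 to 118 CPM (-0.46 ± 0.10). PTGR1, a prostaglandin reductase gene, had 128 to 170.0 CPM against 191 to 214 CPM (-0.40 ± 0.11). IKBKG, which encodes the regulatory subunit NEMO of the kinase that activates NF-kB, had 72.6 to 98.5 CPM against 108 to 125 CPM (-0.41 ± 0.11). CPSF1, a polyadenylation factor gene, had 24.9 to 31.3 CPM against 36.7 to 55.7 CPM (-0.65 ± 0.17). Without S13 the rule added CENPW, a kinetochore gene (-0.48 ± 0.11), SKIC8, a cofactor gene of the RNA exosome (-0.58 ± 0.14), and SNRPE, a spliceosome gene (-0.37 ± 0.10), besides AAGAB.

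Some of these genes share their locus with another gene, and the sums are given for them. PTP4A1, a phosphatase gene, had 43.6, 51.2, 68.7 and 64.5 CPM in the deletion against 122, 134, 118 and 103 CPM in the control (-1.06 ± 0.25). ENSG00000285976, which overlaps it on the same strand, was higher, with 225, 169.5, 152 and 239 CPM against 132, 96.0, 100.3 and 132 CPM (0.77 ± 0.19). Summed, the pair stood at 253 ± 40.4 CPM (SD) in the deletion and 234 ± 15.1 CPM in the control. OVCA2 had 22.1 to 37.1 CPM against 45.4 to 68.6 CPM (-0.87 ± 0.21). DPH1, which overlaps OVCA2 on the same strand, had 35.4 to 46.3 CPM against 3.35 to 23.3 CPM, and the sum of both was 73.5 ± 4.93 CPM in the deletion and 72.4 ± 5.22 CPM in the control. In the HPRT-targeting libraries DPH1 had 0.679, 0 and 0 CPM in 3 and 36.8 CPM in S30, with a sum of 74.5 ± 3.79 CPM. ASDURF, which RefSeq places within the ASNSD1 locus, had 7.07, 4.35, 2.98 and 12.1 CPM in the deletion against 1.60, 0, 0 and 0 CPM in the control, and with ASNSD1 it summed to 41.9 ± 3.46 CPM against 31.6 ± 3.93 CPM. For PTP4A1 and OVCA2 the summed levels overlapped between the groups, while for ASDURF every deletion library had a higher sum than every control. The counts of single genes at these 3 loci are therefore uncertain.

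Target genes of p53, the transcription factor that responds to broken DNA, were higher in the deletion. Of the 18 that arrest the cycle or feed back on p53, 17 were higher (median 0.21), of 16 death genes 14 were (median 0.15), and of 17 with repair, metabolic or secreted products 15 were (median 0.35), where 50.3% of all genes were higher. Without S13 the counts were 14 of 18, 15 of 16 and 15 of 17, with medians of 0.11, 0.21 and 0.30. The number with an unadjusted edgeR p under 0.05 and the higher level in the deletion was 5, 2 and 8 with all libraries and 3, 1 and 7 without S13, against 4.05% and 4.15% of all genes, and 0 passed the adjusted threshold. No gene of these lists had an unadjusted p under 0.05 with the lower level in the deletion. The groups still overlapped for most members: every deletion library lay above every control for 1, 0 and 2 genes of the 3 lists, against 2.86% of all genes. The median of the arrest list was 0.34, 0.11, 0.03 and 0.61 in S10, S11, S12 and S13, against 0.23, -0.10, -0.03 and -0.03 in S27, S29, S31 and S33, so that the control S27 lay above S11 and S12.

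CDKN1A, which encodes the cyclin-dependent kinase inhibitor p21, had 476, 360.3, 327 and 575 CPM in S10, S11, S12 and S13, against 418, 282, 294 and 278 CPM in S27, S29, S31 and S33. The control S27 lay among the deletion libraries, so the groups overlapped (0.45 ± 0.19, and 0.30 ± 0.16 without S13). MDM2, whose product degrades p53, had 226, 187, 159 and 214 CPM against 185, 125, 116 and 134 CPM, again with S27 within the deletion range (0.49 ± 0.16). BTG1, an antiproliferative gene, had 95.2 to 128 CPM against 68.8 to 92.2 CPM without overlap (0.43 ± 0.12). RPS27L, a ribosomal protein gene induced by p53, had 365 to 627 CPM against 313 to 363 CPM (0.49 ± 0.15), and CMBL, a hydrolase gene, had 7.47 to 15.3 CPM against 4.63 to 5.32 CPM (0.93 ± 0.25); neither overlapped. FAS, a death receptor gene, had 6.78 to 15.8 CPM against 5.93 to 8.09 CPM (0.82 ± 0.26). It overlaps ACTA2 on the opposite strand. ASCC3, a helicase gene of alkylation repair, had 0.46 ± 0.11 without S13 and 0.36 ± 0.13 with it, RRM2B, a ribonucleotide reductase subunit gene, had 0.53 ± 0.19, and GDF15, a secreted stress factor gene, had 0.35 ± 0.13.

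Genes of DNA replication and cell division were lower in the deletion. Of 19 licensing genes, which load and start the replicative helicase, 17 were lower (median -0.31), of 31 S-phase genes 27 were (median -0.20), and of 40 mitotic genes 37 were (median -0.31), where 49.7% of all genes were lower. Without S13 the counts were 15, 25 and 32, with medians of -0.21, -0.11 and -0.13. An unadjusted p under 0.05 with the lower level in the deletion was reached by 6, 4 and 9 genes of the 3 lists, against 2.74% of all genes, and by 5, 4 and 5 without S13, against 2.83%; 0 passed the adjusted threshold. By library, the median of the mitotic genes in S13 was -0.78 against the control mean, while S10, S11 and S12 had -0.23, -0.22 and 0.02. The controls S27, S29, S31 and S33 had 0.13, 0.03, -0.11 and -0.07, so S12 lay above S31 and S33. For the S-phase genes S10 and S12, at -0.060 and -0.059, lay above the control S31 at -0.145. For the licensing genes the deletion libraries had -0.15 to -0.53, below every control, the lowest being S31 at -0.125.

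MCM7, a subunit gene of the replicative helicase, had 89.0, 72.8, 90.6 and 82.5 CPM in S10, S11, S12 and S13, against 114, 129, 95.1 and 115 CPM in the controls, with no overlap (-0.44 ± 0.13, and -0.42 ± 0.13 without S13). MCM5 of the same complex had 41.6 to 61.1 CPM against 62.9 to 72.8 CPM (-0.37 ± 0.13). FEN1, the flap endonuclease gene of lagging-strand synthesis, had 102, 83.5, 94.5 and 36.9 CPM against 159.6, 142, 103 and 126 CPM (-0.74 ± 0.24, and -0.50 ± 0.14 without S13). It lies within the FADS2 locus on the same strand, and the summed level of both was 345 ± 72.4 CPM (SD) in the deletion and 337 ± 17.6 CPM in the control, so the count of FEN1 alone is uncertain. POLE2, a subunit gene of DNA polymerase epsilon, had -0.59 ± 0.20, TYMS, the thymidylate synthase gene, -0.31 ± 0.11, and UHRF1, which maintains DNA methylation at the fork, -0.68 ± 0.25. ORC1 and ORC6 of the origin recognition complex had -0.75 ± 0.27 and -0.60 ± 0.25, or -0.55 ± 0.24 and -0.35 ± 0.15 without S13. GINS2 of the helicase had -0.41 ± 0.19. Among mitotic genes, CCNB2, a cyclin B gene, had 43.6 to 65.2 CPM in the deletion against 69.5 to 78.4 CPM in the control (-0.43 ± 0.16), UBE2C, which marks cyclins for degradation, had 54.04 to 78.2 CPM against 82.9 to 105 CPM (-0.46 ± 0.17), and CENPA, the centromeric histone gene, had -0.50 ± 0.14. CENPA overlaps SLC35F6 on the same strand, so its count alone is uncertain. The summed level of both was 82.9 ± 4.77 CPM (SD) in the deletion and 102.7 ± 10.29 CPM in the control. FOXM1, a transcription factor of mitotic genes, had 67.1, 73.9 and 69.4 CPM in S10, S11 and S12 and 21.3 CPM in S13, against 88.8 to 107 CPM in the controls. Genes of double-strand break repair were divided, with 11 of 31 higher and 20 lower with all libraries, and 19 higher and 12 lower without S13. PALB2, the partner of BRCA2, was among the higher ones (0.59 ± 0.20).

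The promoters of the replication genes often carry a shared sequence feature. The letters TTTCCCGC, TTTGGCGC, TTTCGCGC or TTTGCCGC on either strand, which are forms of the E2F motif, were found in the promoters of 9 of 16 licensing genes with one in RefSeq (56.2%) and of 12 of 28 S-phase genes (42.9%), but of 3 of 32 mitotic genes (9.38%), where 3.34% of all 27305 promoters held one. The p53 arrest and feedback targets had a match in 2 of 15 promoters (13.3%). GC boxes were found in 75%, 67.9%, 68.8% and 93.3% of the licensing, S-phase, mitotic and p53 arrest promoters, against 44.5% of all. The part of base content in the E2F matches was not tested. The 3 promoters below, on GRCh38.p14 and from 250 bases before to 50 after the start, are shown for a helicase, a polymerase and a nucleotide synthesis gene, with the matches in capitals. They lie at chr7:100101348-100101647 (minus strand), chr14:49688165-49688464 (minus strand) and chr18:657403-657702 (plus strand), and their matches begin at bases -187 and -9, -5, and -39 from the start.
MCM7 promoter: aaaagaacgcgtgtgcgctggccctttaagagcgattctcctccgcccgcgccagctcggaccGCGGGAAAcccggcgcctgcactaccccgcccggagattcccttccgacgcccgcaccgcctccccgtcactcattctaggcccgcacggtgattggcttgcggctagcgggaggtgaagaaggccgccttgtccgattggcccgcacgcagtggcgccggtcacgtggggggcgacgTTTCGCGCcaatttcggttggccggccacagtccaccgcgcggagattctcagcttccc
POLE2 promoter: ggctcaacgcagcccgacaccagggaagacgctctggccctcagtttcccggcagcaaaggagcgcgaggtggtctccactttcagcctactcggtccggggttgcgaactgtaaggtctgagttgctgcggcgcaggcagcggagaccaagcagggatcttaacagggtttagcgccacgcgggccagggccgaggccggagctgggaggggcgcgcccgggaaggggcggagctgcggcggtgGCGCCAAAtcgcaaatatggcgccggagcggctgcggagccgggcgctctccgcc
TYMS promoter: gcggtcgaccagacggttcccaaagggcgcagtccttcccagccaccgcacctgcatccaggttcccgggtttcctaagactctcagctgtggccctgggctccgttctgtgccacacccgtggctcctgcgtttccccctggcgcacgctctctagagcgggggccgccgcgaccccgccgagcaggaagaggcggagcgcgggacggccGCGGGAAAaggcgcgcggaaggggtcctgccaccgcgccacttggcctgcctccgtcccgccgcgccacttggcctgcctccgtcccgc
UHRF1 and GINS2 held 1 match each, and FEN1, ORC1 and ORC6 held none.

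**Figure D4:**
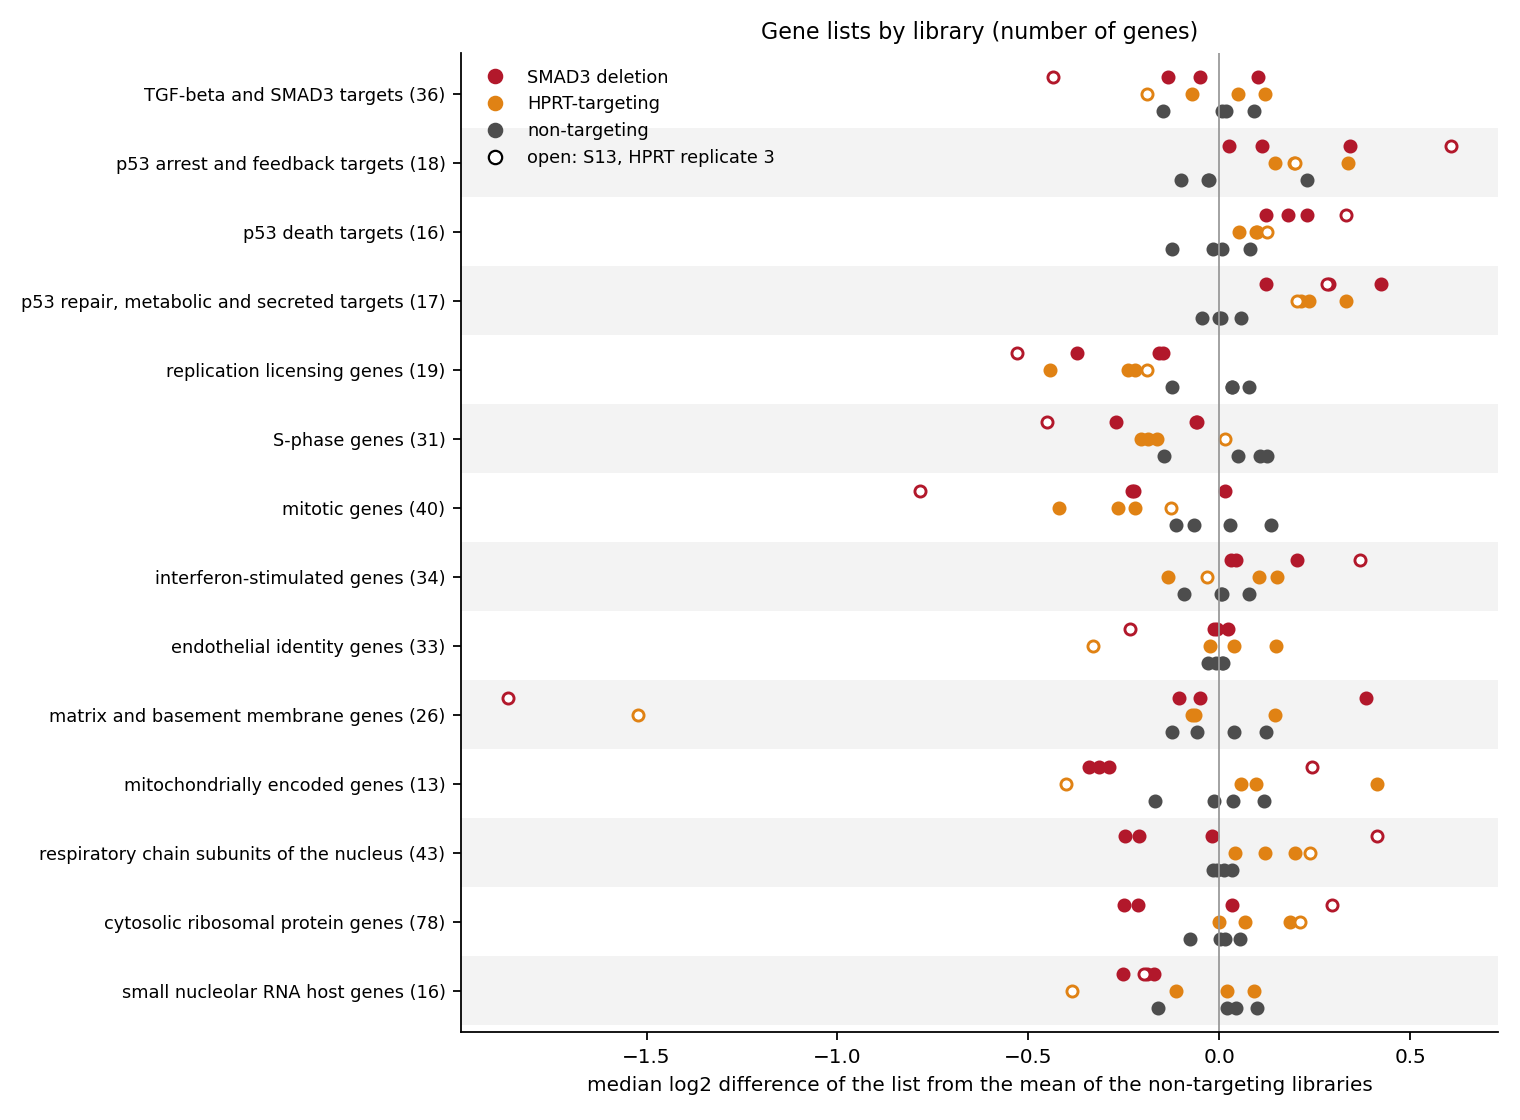
Median log2 difference of each gene list (number of genes in brackets) in each library from the mean of the 4 non-targeting libraries, with the SMAD3 deletion on top, the HPRT-targeting guide below it and the non-targeting guide last in each row; open points are S13 and HPRT replicate 3. The p53 lists lie right of 0 and the licensing genes left of 0 in all 4 deletion and all 4 HPRT-targeting libraries, and the matrix genes are at -1.86 in S13 and -1.52 in HPRT replicate 3.

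The HPRT-targeting guide also cuts the genome but not at SMAD3. Against the same controls it gave medians of the same sign for the p53, licensing, S-phase and mitotic lists, but not for every list. The p53 lists stood at 0.21, 0.15 and 0.35 in the deletion and at 0.18, 0.12 and 0.27 in the HPRT-targeting libraries, and the licensing, S-phase and mitotic lists at -0.31, -0.20 and -0.31 in the deletion and at -0.25, -0.21 and -0.23 in the HPRT-targeting libraries. The 2 comparisons share their control libraries. CDKN1A had 594, 460.2, 473 and 406 CPM in HPRT-targeting libraries, above S29, S31 and S33. A comparison added after the data were seen sets the deletion directly against the HPRT-targeting libraries, which leaves those controls out. In it, 6027 of all 11467 genes tested were higher in the deletion. Of the p53 targets, 10 of 18, 10 of 16 and 11 of 17 were higher (medians 0.03, 0.07 and 0.07). So were 7 of 19 licensing, 15 of 31 S-phase and 16 of 40 mitotic genes (medians -0.09, -0.02 and -0.07). CDKN1A stood at -0.15 ± 0.19, MDM2 at 0.09 ± 0.16 and MCM7 at -0.25 ± 0.13. Without S13 and S30 the same comparison had 5937 of all 11574 genes tested higher in the deletion. Higher there were 4 of 18 p53 arrest targets, 9 of 16 death targets and 8 of 17 repair and metabolic targets (medians -0.11, 0.12 and -0.01). So were 11 of 19 licensing, 19 of 31 S-phase and 32 of 40 mitotic genes (medians 0.09, 0.05 and 0.11). The mitotic genes thus lay lower than the non-targeting control in the deletion, but not lower than the HPRT-targeting libraries once S13 and S30 were left out. With all libraries SMAD3 stood at -0.39 ± 0.14 and AAGAB at -0.39 ± 0.18.

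HPRT1 itself, the check of that group's label, had 29.5, 30.0, 42.2 and 28.05 CPM in HPRT-targeting libraries against 34.7, 37.2, 38.7 and 52.8 CPM in the controls (-0.33 ± 0.21, and -0.48 ± 0.14 without S13 and S30). Its library S30, the third replicate, stood apart like S13, with a median correlation of 0.96 against 0.977 to 0.981 for the other 3. With all libraries the deletion against HPRT targeting gave 0 of 11467 genes by edgeR, with 669 (5.83%) at an unadjusted p under 0.05. Leaving out S30 gave 2 called genes (0.0172%), DPH1 and OVCA2, the overlapping pair whose summed level was 73.5 ± 4.93 CPM in the deletion and 74.5 ± 3.79 CPM in the HPRT-targeting libraries. Leaving out S13 gave 0, and leaving out both gave 55 of 11574, or 0.475%, of which 38 fell in the deletion (0.328%) and 17 rose (0.147%). The genes at an unadjusted p under 0.05 were then 7.67% without S30, 13.6% without S13 and 14.4% without both. AAGAB was 1 of the 38, at -0.62 ± 0.12 (edgeR adjusted p = 0.0307), and SMAD3 was at -0.38 ± 0.10 with an edgeR adjusted p of 0.0985. COX6C (-0.47 ± 0.08), MT2A (-0.46 ± 0.09), EEF2 (-0.48 ± 0.08) and PTGR1 (-0.50 ± 0.09) fell, and ADAM15 (0.49 ± 0.10), PSPC1 (0.54 ± 0.11) and MTRNR2L8 (0.97 ± 0.18) rose. Because S13 and S30 were left out with their values known, these 55 calls describe 3 libraries against 3.

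Genes of energy supply and translation separated S13 from S11 and S12. Of 13 mitochondrially encoded genes, 10 were lower without S13 (median -0.32) and 7 with it (median -0.09), and the list's median was -0.29, -0.31 and -0.34 in S10, S11 and S12, against 0.24 in S13. MT-CO2, a cytochrome c oxidase subunit gene, had 2063, 2282, 2156 and 2896 CPM in S10, S11, S12 and S13, against 2658, 3294, 2955 and 3085 CPM in the controls (-0.35 ± 0.19, and -0.45 ± 0.18 without S13). MT-ND1, a subunit gene of complex I, had 966 to 1108 CPM against 1250 to 1540 CPM, without overlap (-0.43 ± 0.20). MT-CO3 had -0.38 ± 0.12 without S13. Against the HPRT-targeting libraries without S13 and S30, 7 of the 13 fell by edgeR's adjusted threshold, among them MT-CO2 (-0.78 ± 0.10) and MT-CO3 (-0.71 ± 0.09), next to 0.328% of all genes. In S30 the list stood at -0.40 against the control mean and in the other 3 HPRT-targeting libraries at 0.06 to 0.41.

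Of 43 nuclear genes of the respiratory chain, 36 were lower without S13 (median -0.14) and 20 with it (median 0.01), with list medians of -0.02, -0.25 and -0.21 in S10, S11 and S12 and 0.41 in S13. NDUFA1, a complex I subunit gene, had 247, 225, 219.7 and 287 CPM in the deletion against 278 to 297 CPM in the control (-0.25 ± 0.11, and -0.32 ± 0.09 without S13). Of 78 cytosolic ribosomal protein genes, 69 were lower without S13 (median -0.13) and 43 with it (median -0.02). The list medians were 0.03, -0.25, -0.21 and 0.29 in S10, S11, S12 and S13, against -0.076 to 0.055 in the controls. S10 thus lay within the control range, S11 and S12 below it and S13 above it. Ribosomal protein genes have many pseudogene copies, so their counts can be shared. Host genes of small nucleolar RNAs were lower in all 4 deletion libraries, with list medians of -0.19, -0.17, -0.25 and -0.20 in S10, S11, S12 and S13, against -0.16 to 0.10 in the controls, and 12 of 16 were lower with all libraries and 14 without S13. GAS5, a host RNA that accumulates when translation slows, had 41.0, 43.4, 47.7 and 59.1 CPM against 52.9, 65.2, 66.7 and 69.1 CPM (-0.41 ± 0.15). SNHG6 and SNHG5 had -0.29 ± 0.12 and -0.23 ± 0.11.

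Matrix genes differed chiefly in S13. Their list median was -1.86 in S13, against -0.10, 0.38 and -0.05 in S10, S11 and S12 and -0.12 to 0.12 in the controls, so 18 of 26 were lower with all libraries and 9 without S13. FN1, the fibronectin gene and a SMAD3 target, had 524, 1197, 816 and 43.8 CPM in S10, S11, S12 and S13, against 709, 921, 917 and 808 CPM in the controls (-0.38 ± 0.71, and 0.02 ± 0.48 without S13). COL4A1, a basement membrane collagen gene, had 81.8, 173, 141 and 9.19 CPM against 128, 138, 143 and 159 CPM, and HSPG2, the perlecan gene, 174, 378, 258 and 32.97 CPM against 235, 309, 300.2 and 224 CPM. S30 was low as well, with 82.7 CPM of FN1, 30.8 CPM of COL4A1 and 25.4 CPM of HSPG2. PLOD2, which encodes a collagen lysine hydroxylase, stood out from its list with 127 to 143 CPM in the deletion, S13 the highest, against 83.5 to 102 CPM in the control (0.53 ± 0.15, no overlap).

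**Figure D5:**
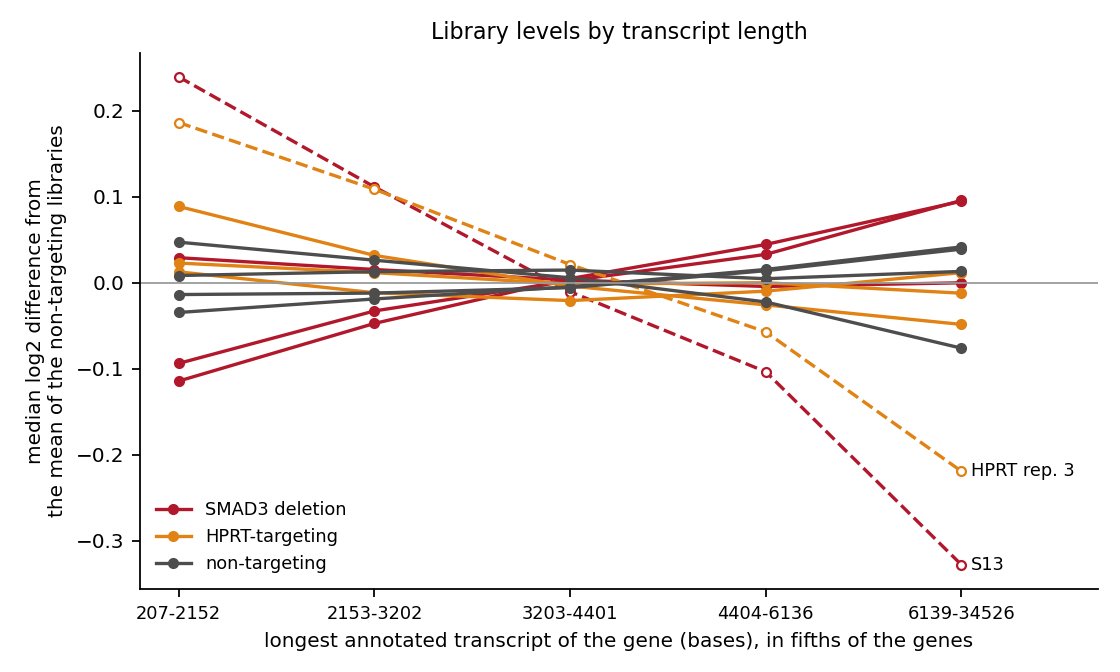
Median log2 difference from the mean of the non-targeting libraries for 5 groups of genes by the length of their longest annotated transcript (horizontal axis, shortest on the left), one line per library; dashed lines with open points are S13 and HPRT replicate 3. Those 2 lines fall from 0.24 and 0.19 for the shortest to -0.33 and -0.22 for the longest transcripts, while the other 10 libraries stay between -0.11 and 0.10.

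Levels in S13 followed transcript length. In the 8278 genes with at least 10 CPM and an annotated length, the median of S13 over the control mean was 0.24 over the 1657 genes with the shortest transcripts (207 to 2152 bases) and -0.33 over the 1656 with the longest (6139 to 34526 bases). The same values were 0.19 and -0.22 in S30, 0.03 and -0.00 in S10, -0.11 and 0.09 in S11, -0.09 and 0.10 in S12, and -0.03 to 0.05 and -0.08 to 0.04 in the controls. FN1, COL4A1 and HSPG2 have longest transcripts of 9171, 6616 and 14327 bases, and COX6C one of 1098. SMAD3 has one of 6247 bases and so belongs to the group with the longest transcripts. Its level was lowest in S13 among the deletion libraries and in S30 among the HPRT-targeting ones. S11 and S12 leaned slightly the other way, and these are the deletion libraries with the lowest ribosomal protein and nuclear respiratory chain genes. The part of transcript length in the list differences and in the SMAD3 difference was not tested.

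Endothelial identity genes were divided. Of 33 such genes, 15 were higher and 18 lower with all libraries (median -0.02), and 18 higher and 15 lower without S13 (median 0.03). The list's median was -0.01, 0.02 and -0.01 in S10, S11 and S12, and -0.23 in S13. PECAM1, an adhesion gene of endothelial junctions, had 311, 349.7, 307 and 218 CPM in the deletion against 298, 371, 360.1 and 344 CPM in the control (-0.21 ± 0.17, and -0.08 ± 0.14 without S13), and CDH5, the VE-cadherin gene, had -0.12 ± 0.22 and 0.09 ± 0.16. TAL1, a transcription factor gene of the blood and endothelial lineages, was the 1 member with an unadjusted p under 0.05 with all libraries, at 27.6 to 36.0 CPM against 37.4 to 41.9 CPM (-0.28 ± 0.13), where 2.74% of all genes had one with the lower level. Without S13 there were 2 with the higher level, ANGPT2 (0.36 ± 0.14) and THBD (0.24 ± 0.11), and 1 with the lower, TAL1 (-0.33 ± 0.13), against 4.15% and 2.83%. CAV2, of the caveolae that stud endothelial membranes, had 152 to 202 CPM against 118 to 147 CPM (0.35 ± 0.12), and CAV1 had 1404, 1148, 1251 and 2246 CPM against 1099 to 1251 CPM (0.38 ± 0.17, and 0.14 ± 0.09 without S13). The mesenchymal and smooth muscle markers had 8 of 14 higher (median 0.05), with no unadjusted p under 0.05. Without S13 they had 10 of 14 higher (median 0.08), of which ZEB2 and RGS5 (0.28 ± 0.10) had an unadjusted p under 0.05, against 4.15% of all genes.

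Of 34 interferon-stimulated genes, 25 were higher with all libraries (median 0.14) and 24 without S13 (median 0.08), where 50.3% and 52.4% of all genes were higher. An unadjusted p under 0.05 with the higher level was reached by 4 with all libraries, against 4.05% of all genes, and by 0 without S13, against 4.15%. IFI44L had 9.01 CPM in S13 against 0.534 to 1.81 CPM in the other deletion libraries and 0.608 to 1.60 CPM in the controls, and ISG15 had 28.8 CPM against 9.46 to 14.0 CPM and 6.94 to 11.6 CPM. IFIT5, an antiviral RNA-binding gene, had 0.58 ± 0.23 and 0.51 ± 0.24 without S13. PSMB9, an immunoproteasome gene, had 39.5 CPM in S13 and 11.8 to 16.1 CPM in the other 3, against 11.2 to 15.3 CPM. Among YAP and TEAD targets, which answer to cell shape, 16 of 23 were higher without S13 (median 0.08) and 6 of them had an unadjusted p under 0.05, against 4.15% of all genes; with all libraries 12 of 22 were higher and 1 had one. AMOTL2, an angiomotin gene, had 0.47 ± 0.16 and MYOF, a membrane repair gene, 0.44 ± 0.14 without S13, with MYOF at 43.8 CPM in S13 against 102 to 108 CPM in S10, S11 and S12. SRF, the transcription factor of actin genes and immediate early genes, was lower without overlap, at 218, 191, 182 and 139 CPM in the deletion against 287, 278, 228 and 243 CPM in the control (-0.51 ± 0.18). In the stress response lists, PHGDH, the first enzyme of serine synthesis, had 13.7 to 30.3 CPM against 15.4 to 49.5 CPM (-0.81 ± 0.34), and ATF6, a sensor gene of the unfolded protein response, had 66.8 to 78.3 CPM against 54.2 to 72.0 CPM (0.30 ± 0.11).

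The remaining lists had no more than 3 members on either side at an unadjusted p under 0.05 in either fit, apart from the stress response list, which had 1 higher and 4 lower with all libraries and 5 higher and 4 lower without S13. Of all genes 4.05% were higher and 2.74% lower at that p with all libraries, and 4.15% and 2.83% without S13. With all libraries, the number of higher genes was 5 of 12 BMP and ID targets, 9 of 17 antigen presentation genes, 7 of 15 inflammatory genes, 9 of 21 Notch and ephrin genes and 11 of 18 flow-induced genes, where 50.3% of all genes were higher. It was 7 of 17 immediate early genes, 8 of 15 haemostasis genes, 16 of 32 stress response genes, 13 of 24 heat shock genes and 16 of 29 hypoxia and glycolysis genes. It was 13 of 28 cholesterol genes, 8 of 20 NRF2 targets, 8 of 17 lipid droplet genes, 13 of 27 actin and myosin genes, 3 of 4 keratins of simple epithelia, which teloHAEC expressed, and 0 of 3 blood cell genes. Without S13, where 52.4% of all genes were higher, the number of higher genes was 3 of 12 BMP and ID targets, 7 of 17 antigen presentation genes, 10 of 15 inflammatory genes, 11 of 21 Notch and ephrin genes and 12 of 18 flow-induced genes. It was 6 of 17 immediate early genes, 10 of 16 haemostasis genes, 12 of 32 stress response genes, 11 of 24 heat shock genes and 12 of 29 hypoxia and glycolysis genes. It was 11 of 28 cholesterol genes, 5 of 20 NRF2 targets, 10 of 17 lipid droplet genes, 17 of 27 actin and myosin genes, 3 of 4 keratins and 0 of 3 blood cell genes.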

How the data were processed

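QuantSeq 3′ mRNA libraries were read from one end over 86 cycles, per the labels. The authors deposited whole-number counts per gene, 14008 genes by 27 libraries; 0 columns lacked a sample. The submitters' processing notes name hg38 and edgeR 3.24.3; the aligner, the counter and the strand setting were not given in the sources used here. Of the Ensembl IDs, 13949 took current symbols and 57 GENCODE 29 symbols.

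Counts of the 12 libraries of set A were fitted with edgeR 4.0.16 in R 4.3.3 (TMM, filterByExpr, quasi-likelihood test, two-sided, Benjamini-Hochberg adjustment, threshold 0.05). The SE is the log2 fold change divided by the square root of F. The permutation test used log2 CPM with a prior count of 2. Alternatives were DESeq2 1.42.0, limma 3.58.1 voom, other filters, size factors and depths, and left-out libraries. Fits were also run on simulated counts with changes of known size, which held no shift of a whole library such as that of S13. Their results are not reported here.

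Members, the 35 gene lists and the naming rule were chosen with earlier results of these data known. The rule takes SMAD3, tested genes within 1 Mb, up to 10 genes per direction (called, or else smallest unadjusted p) with and without S13 at a mean of at least 10 CPM, and up to 4 members per list. MT1X, MT1E, SMAD2, SMAD4, SMAD7, TGFBR1, TGFBR2, CCN1, CCN2, FN1, COL4A1, HSPG2, PECAM1 and CDH5, the genes set beside an overlapping gene, and HPRT1 were named outside it. Results of some genes that the rule takes are not reported here.

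The count profiles of every pair of replicates differed by more than sampling noise (chi-square over its degrees of freedom 3.03 or higher), so all were kept apart. A count of 0 allows up to 0.401 to 0.532 CPM in the deletion and 0.432 to 0.578 CPM in the control, taking 3 counts of the total; this covers counting error only. The S-numbers (10 to 13, and 26 to 33) are not explained, so handling that follows them cannot be told apart from the deletion.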

Additional observations from a re-analysis of the deposited data

Results flagged for a closer look

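In a group of 4 libraries, one library can lie far from the other 3: the gap to its nearest neighbour is then a larger part of the group's range than the 95% critical value of Dixon's test for 4 samples. This was looked for in the CPM of 96 genes and in the medians of 35 lists, in the deletion and in the control, and chance alone gives it in about 1 in 20 groups. It occurred in 17 of 192 groups of gene values and in 5 of 70 groups of list medians.

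In the deletion, S13 was the far library for 10 genes and 3 lists. It was far above the rest for CMBL (gap of 0.925 of the range), AP1S1 (0.873), IFI44L (0.849), CENPW (0.848), MT-CO3 (0.847), PSMB9 (0.843) and SMAD4 (0.84), and far below for MYOF (0.907), FOXM1 (0.87) and ORC6 (0.838). Its list medians were far above for hypoxia and glycolysis genes (0.932) and mitochondrially encoded genes (0.91), and far below for endothelial identity genes (0.86). S10 was far above the other 3 for CENPA (0.956).

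In the control, S27 was far above for CDKN1A (0.886), RRM2B (0.843) and the immediate early genes (0.931), and S29 for the cholesterol synthesis and uptake genes (0.907). S33 was far below for ARHGAP29 (0.878) and ARHGAP24 (0.834) and far above for TAL1 (0.871). S31 was far below for SNRPE (0.946).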

How the results depend on the processing

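No paired analysis was possible because the replicate numbers were given in accession order and the groups' labels share no number. Without S13, SMAD3 stayed lower, and it stayed lower under all 16 alternatives (-0.33 to -0.44, and -0.31 to -0.49 with 1 library left out), with an adjusted p of 0.249 to 0.954. DESeq2's size factors turned the sign of no list median.

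Genes called with all libraries were 0 by edgeR, 14 by DESeq2, 2 by limma voom, and 1 (MTRNR2L8) by edgeR without S13 and HPRT replicate 3, and 0 with any 1 library left out. Starting without S13 they were 0 by edgeR, 16 by DESeq2, 2 by voom, 2 (PTP4A1, MTRNR2L8) with the compared groups only, 1 with no filter, 1 without HPRT replicate 3 as well, and 0 to 1 with 1 more library left out (ASDURF, without S27). Genes at an unadjusted p under 0.05 numbered 1237 by voom, 1231 without S13 and HPRT replicate 3, and 518 (without S29) to 1050 (without S11) with 1 library left out, against 778; starting without S13 they were 1389 by voom, 1231 without HPRT replicate 3 as well and 555 to 876 with 1 left out, against 811. Against HPRT targeting, calls were 0, or 2 without HPRT replicate 3 and 55 without it and S13, and unadjusted counts 669, or 892 without HPRT replicate 3, 1581 without S13 and 1661 without both. No gene within 1 Mb was called under any alternative with all libraries as its base.

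Without S13, list medians moved to -0.12 for stress and unfolded protein response genes, -0.18 for small nucleolar RNA host genes and 0.072 for actin and myosin genes, beyond the spread of the deletion libraries. The median of 11 of the 35 lists changed sign without S13: matrix (-0.19, and 0.06 without it), respiratory chain (0.01 and -0.14), hypoxia (0.04 and -0.07), actin and myosin, break repair, antigen presentation, inflammatory, endothelial, Notch, heat shock and lipid droplet genes. Of 1510 alternative values of the other 95 genes, 1491 kept their sign. Without S13 and HPRT replicate 3, SMAD4 was at -0.10, FN1 at 0.0083, HSPG2 at 0.013 and CDH5 at 0.072 (0.066 by voom). With 1 library left out, SMAD4 ran from -0.085 to 0.23, FN1 from -0.87 to 0.025, HSPG2 from -0.78 to 0.029, CDH5 from -0.25 to 0.088, SMAD6 from -0.19 to 0.065, TGFBR2 from -0.026 to 0.068 and CCN2 from -0.041 to 0.14. The causes were not tested.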
